A study of Homo sapiens with 16 samples.

Results

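The genes described here are 42 genes of autophagy and the lysosome, given as a list of gene symbols. All 42 were matched to an Ensembl identifier among the 60676 in the count tables, and all 42 passed the filter on low counts that left 21569 genes for testing. The list was grouped by role into autophagy initiation, the conjugation machinery, ATG8 proteins, cargo receptors, transcription factors with their nutrient control, proteases, glycosidases, membrane proteins, and the proton pump of the lysosome (V-ATPase).

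RNA was measured by total RNA sequencing in A101D and MeWo, both established human melanoma lines, with 8 libraries of each. A101D is labelled methionine dependent, and MeWo is known as a methionine independent line that grows when homocysteine takes the place of methionine. Both lines were grown in a base medium without methionine, to which either methionine (control) or homocysteine was added. No label says which culture received which, so the 4 groups used here are replicates 1 to 4 and replicates 5 to 8 of each line, a split by replicate number that carries no named condition. The labels do not say whether the libraries of a line came from separate cultures, and p-values therefore measure only the spread between these libraries, which may be technical.

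Autophagy encloses cell material in a double membrane that fuses with the lysosome, where acid hydrolases break it down. The ULK1 kinase complex and the BECN1 lipid kinase complex start the membrane, a ubiquitin-like conjugation system attaches ATG8 proteins such as MAP1LC3B to it, and receptors such as SQSTM1 link cargo to ATG8 proteins. Transcription factors of the MiT/TFE family, among them TFEB, TFE3 and the melanocyte factor MITF, switch on lysosomal genes, and amino acids held in the lysosome restrain TFEB and TFE3 through the Rag GTPases and mTORC1.

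Total counts ran from 28910881 to 38961862 per library, and no member had fewer than 125 counts in any library (TFEB). The median coefficient of variation over the members was 3.55% and 2.52% in A101D replicates 1 to 4 and 5 to 8, and 3.33% and 2.96% in the same sets of MeWo. Mitochondrial genes took 1.71% to 1.92% of counts in A101D replicates 1 to 4 and 1.93% to 2.33% in replicates 5 to 8, against 1.28% to 1.45% in MeWo. Genes with a count numbered 31281 to 33107 and 34020 to 34607 in the A101D sets, so neither measure overlapped between these sets, and the part of either in the A101D set differences below was not tested. Replicate 2 of MeWo had 34471 genes with a count, while each remaining MeWo library had between 30066 and 31433. The melanocytic marker SOX10 was present in both lines, at between 352 and 409 CPM across A101D libraries and between 432 and 483 CPM across MeWo. TYR and TYRP1, enzymes of pigment synthesis, were near 0 in A101D (1.10 to 1.74 and 0.25 to 1.74 CPM) and reached 284 to 320 and 2067 to 2606 CPM in MeWo. For 8 of the 42 members (ATG7, BECN1, CTSA, CTSD, FLCN, HEXA, SQSTM1 and WIPI1), over 10% of the annotated exon bases are also covered by exons of another gene, mostly on the opposite strand. The library kit keeps strand, but the strand setting of the counting is not given in the sources used here, so reads of such stretches cannot be told apart. CPM here are counts per 1e+06 of a library size scaled by trimmed means (TMM).

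Levels of different members are compared here per kilobase of annotated exon. PSAP, the precursor of the saposins that help degrade sphingolipids, was the highest member per length in all 4 groups, at 489.0 and 538.4 CPM per kb for the A101D sets (1 to 4, then 5 to 8) and at 1226 and 1239 CPM per kb in MeWo. TFEB was the lowest member per length in all 4 groups, between 0.841 and 1.147 CPM per kb. The median member lay at 14 and 12.65 CPM per kb in the A101D sets and at 17.71 and 17.41 CPM per kb in the MeWo sets. WIPI1 ranked 19 and 24 among the 42 members in A101D and 5 in both sets of MeWo. GPNMB, a melanosomal and lysosomal glycoprotein, ranked 2 in A101D and 4 in MeWo.

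**Figure D1:**
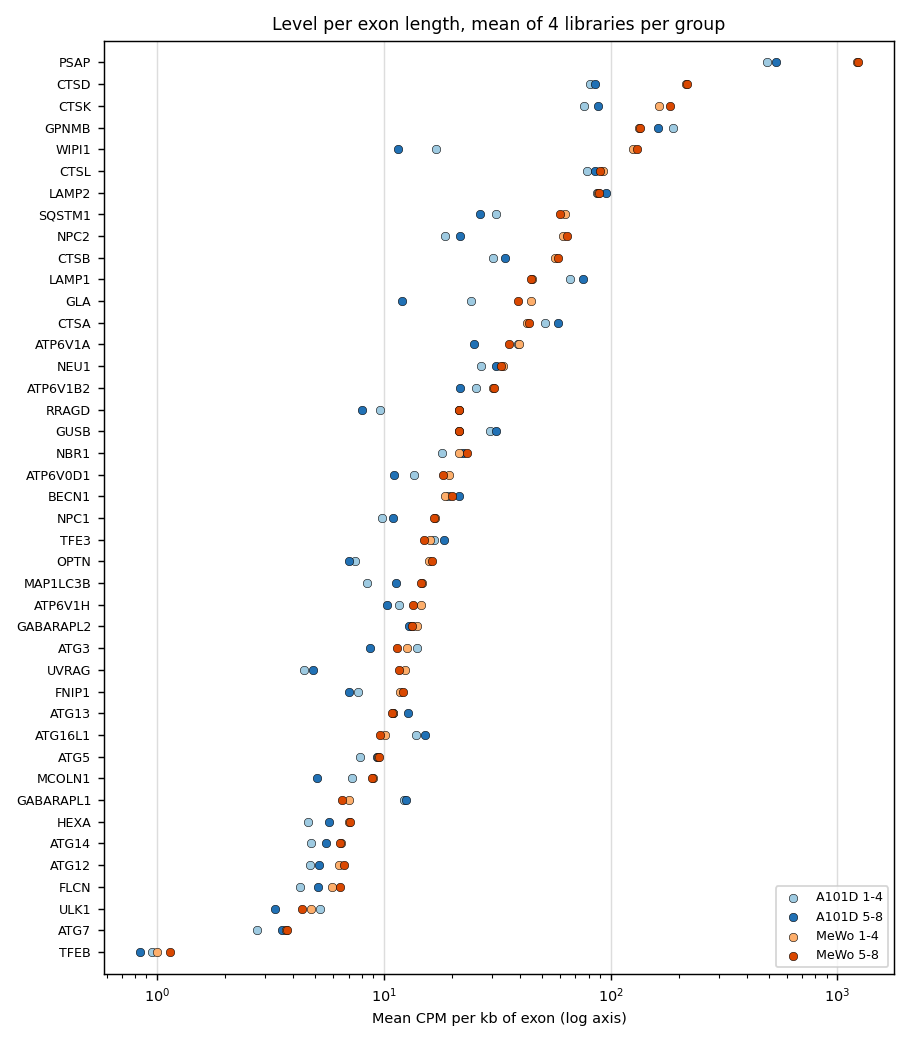
Mean level of each of the 42 members per kilobase of exon, on a log axis in CPM per kb, with 1 point for each group of 4 libraries. PSAP is highest and TFEB lowest in every group, and WIPI1 shows the widest gap between the A101D and MeWo points.

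Some promoter windows of these genes hold the sequence that the MiT/TFE factors are known to read. Background knowledge places TFEB and TFE3 on the E-box CACGTG, preferably flanked as TCACGTGA, in promoters of lysosomal genes. RefSeq promoter windows on GRCh38.p14, 250 bases before to 50 bases after the gene start, were at hand for 32 of the 42 members (40 windows). CACGTG, which reads the same on both strands, was found in 9 of the 40 windows (22.5%) and in 7.26% of all 35116 windows of that length. The 9 windows belonged to ATG14, ATG3, ATP6V0D1, CTSD, FNIP1, MCOLN1, NEU1, CTSA and LAMP1. Each of the 9 also held TCACGTG on one strand or the other, a motif that contains CACGTG and is in 3.71% of all windows. The full palindrome TCACGTGA was in 5 of the 40 windows (12.5%) and in 0.98% of all windows. The related CATGTG was in 4 of the 40 (10%) and in 11.1% of all windows. A match describes the letters in the window and is not evidence that a factor binds there.

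Windows of 4 members are shown because they hold the motif and the 4 genes did not all vary alike among the groups below. Each is the 250 bases before the gene start, 5′ to 3′ on the gene's strand, with CACGTG in capitals: LAMP1 at chr13:113296989-113297238 (plus strand), MCOLN1 at chr19:7522374-7522623 (plus), ATP6V0D1 at chr16:67481158-67481407 (minus) and CTSD at chr11:1763928-1764177 (minus).
LAMP1: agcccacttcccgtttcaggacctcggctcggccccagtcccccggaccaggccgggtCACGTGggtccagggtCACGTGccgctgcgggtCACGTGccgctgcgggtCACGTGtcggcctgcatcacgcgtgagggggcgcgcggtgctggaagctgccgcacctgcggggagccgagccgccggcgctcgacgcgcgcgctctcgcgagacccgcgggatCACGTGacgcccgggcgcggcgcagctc
MCOLN1: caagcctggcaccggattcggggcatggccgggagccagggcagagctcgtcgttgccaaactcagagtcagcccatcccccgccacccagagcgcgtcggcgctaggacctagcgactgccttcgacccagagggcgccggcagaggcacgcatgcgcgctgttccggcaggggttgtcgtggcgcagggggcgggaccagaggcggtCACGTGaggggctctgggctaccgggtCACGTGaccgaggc
ATP6V0D1: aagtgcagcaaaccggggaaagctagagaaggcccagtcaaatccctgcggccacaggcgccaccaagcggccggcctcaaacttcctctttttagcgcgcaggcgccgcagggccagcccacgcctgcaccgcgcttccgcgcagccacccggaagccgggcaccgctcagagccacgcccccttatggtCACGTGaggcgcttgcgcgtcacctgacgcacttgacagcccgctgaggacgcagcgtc
CTSD: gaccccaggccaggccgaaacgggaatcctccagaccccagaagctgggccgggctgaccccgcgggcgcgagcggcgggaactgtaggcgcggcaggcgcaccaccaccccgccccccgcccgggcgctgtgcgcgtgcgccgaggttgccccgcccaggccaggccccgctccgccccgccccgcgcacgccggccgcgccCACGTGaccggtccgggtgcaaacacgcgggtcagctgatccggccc
LAMP1 has 5 copies within this stretch, beginning 192, 176, 159, 142 and 28 bases before the start, and another begins 1 base before the start and runs past it. MCOLN1 has copies that begin 41 and 14 bases before the start. ATP6V0D1 and CTSD have 1 copy each, 59 and 47 bases before the start.

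The first comparison asked how the lines differ. Of the 42 members, 31 were higher in MeWo and 9 were lower (limma-voom, Benjamini-Hochberg adjusted over all genes tested, threshold 0.05). Among all genes tested, 86.9% passed the same test, 41.7% higher and 45.2% lower, so passing it says little about any gene. By size, 10 members were at least 2-fold higher in MeWo (16.1% of all genes tested) and none was at least 2-fold lower (23.7% of all genes tested). For 29 members no library of one line fell within the range of the other line, as for 55.2% of all genes tested. The median log2 fold change (MeWo minus A101D) was 0.33 over the members and -0.04 over all genes tested, and the median absolute log2 fold change was 0.42 and 0.76.

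The second comparison set replicates 5 to 8 against replicates 1 to 4 within each line. In A101D, 24 members were higher and 13 were lower in replicates 5 to 8, where 65.6% of all genes tested differed (33.2% higher and 32.4% lower). With no low-count filter, 47564 genes were tested and log2 fold changes shifted by a median of -0.0592. The split was then 12 higher and 14 lower. Most of these differences were small: 27 of the 37 were under 0.3 on the log2 scale, 6 were 0.5 or more, and only GLA reached 2-fold (16.6% of all genes tested did). The 2 sets did not overlap for 35 members in A101D and for 59.6% of all genes tested. In MeWo, 3 members were higher (BECN1, NBR1 and CTSK) and 3 lower (ATG3, GLA and ATP6V1A) in replicates 5 to 8, and 13.6% of all genes tested differed (6.16% higher and 7.45% lower). With median-of-ratios scaling the MeWo split was 2 higher and 7 lower, and with total counts only it was 8 higher and 3 lower. None of the MeWo set differences reached 2-fold (0.631% of all genes tested did), and 9 members did not overlap between the MeWo sets (16.6% of all genes tested). The 6 members called in MeWo were called in the same direction in A101D. The share of all genes called in MeWo for which this holds was not counted.

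The difference between the lines in their set differences (MeWo minus A101D) was called for 34 members, 14 positive and 20 negative, against 49.1% of all genes tested (25.9% positive and 23.2% negative). The split was 10 positive and 25 negative when libraries were scaled by total counts only. No member reached 2-fold in this difference, which 13.4% of all genes tested did. Of the 42 members, 39 had the larger absolute set difference in A101D. The median absolute set difference (log2) was 0.211 in A101D and 0.045 in MeWo over the members. Over all genes tested it was 0.413 and 0.122, so a larger difference in A101D was not particular to the members.

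The lines were also compared within each set. In replicates 1 to 4, 27 members were higher and 8 lower in MeWo (79.4% of all genes tested differed, 37.1% higher and 42.3% lower), with 9 at least 2-fold (37.5% of all genes tested) and 36 not overlapping (72.9% of all genes tested). In replicates 5 to 8, 26 were higher and 10 lower (84.2% of all genes tested, 40.3% higher and 43.9% lower), with 10 at least 2-fold (44.7% of all genes tested) and 38 not overlapping (79.2% of all genes tested). In both sets 22 members were higher in MeWo and 6 were lower, namely ATG16L1, GABARAPL1, CTSA, GUSB, LAMP1 and GPNMB. The share of all genes tested that were called in the same direction in both sets was not counted. ULK1 and ATG3 were lower in MeWo in replicates 1 to 4 and higher in replicates 5 to 8. The call of ULK1 in replicates 1 to 4 was lost without MeWo replicate 2 (limma adjusted p = 0.0823) or MeWo replicate 3 (limma adjusted p = 0.118).

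**Figure D2:**
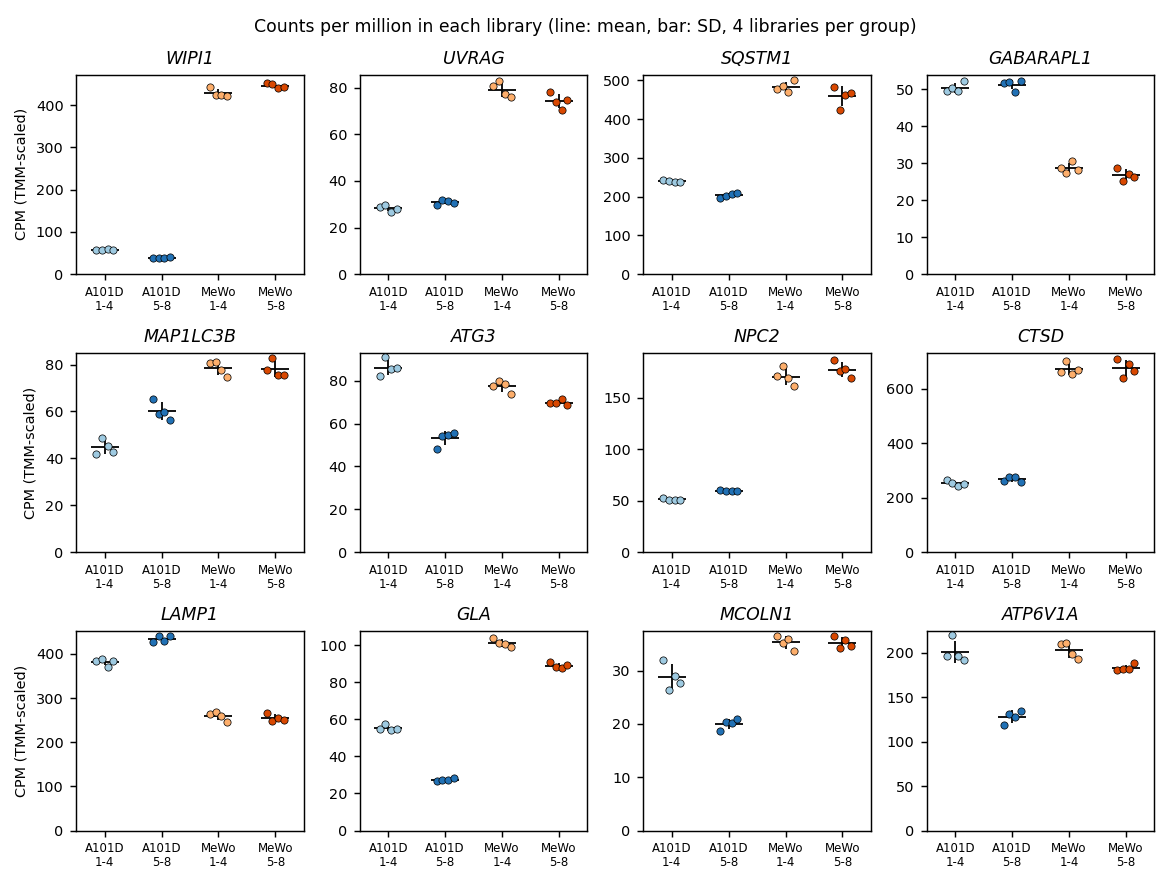
CPM of 12 members in each of the 16 libraries, with 1 panel per gene, the mean as a horizontal line and the SD as a bar (4 libraries per group), all axes from 0. WIPI1, UVRAG, SQSTM1, NPC2 and CTSD are separated by line in both sets, and GLA, ATG3, MCOLN1 and ATP6V1A are lower in the second A101D set than in the first.

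Values by library are given below in the order of the replicate numbers, and gene positions are those of GENCODE v29 on GRCh38. Among the initiation and nucleation genes, 4 of 6 were higher and 2 lower in MeWo (41.7% and 45.2% of all genes tested were). With 2 groups by line in place of 4 these counts were 3 and 0, because ULK1, ATG13 and BECN1 were no longer called (limma adjusted p = 0.329, 0.0516 and 0.0908). WIPI1 (ENSG00000070540, chr17:68420948-68457513, minus strand), which binds the lipid made by the BECN1 complex, stood at 57.8, 57.7, 60.4 and 56.1 CPM in A101D replicates 1 to 4 and at 38.5, 38.2, 38.9 and 41.6 CPM in replicates 5 to 8. In MeWo it stood at 442, 423, 424 and 422 CPM and at 452, 449, 440.3 and 443 CPM. Every MeWo library was far above every A101D library, and the A101D sets did not overlap. The log2 fold change between lines was 3.19 ± 0.02 (SE), 9.16-fold (limma adjusted p = 7.57e-49). Within A101D, WIPI1 was lower in replicates 5 to 8 by a log2 fold change of -0.56 ± 0.04 (SE, limma adjusted p = 1.54e-15). In MeWo the set difference was 0.06 ± 0.03 (limma adjusted p = 0.168), and it was called when libraries were scaled by total counts (0.10, limma adjusted p = 0.0046). Exons of genes on the opposite strand, ARSG among them, cover 28.1% of the annotated exon bases of WIPI1.

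UVRAG (chr11:75815167-76143195, plus strand), a partner of BECN1, was the other strongly separated gene of this group. Its libraries held 28.9, 29.8, 26.6 and 27.9 CPM and 29.8, 31.9, 31.4 and 30.5 CPM in the A101D sets, and 80.8, 82.8, 77.2 and 75.8 CPM and 78.00, 73.9, 70.4 and 74.8 CPM in the MeWo sets. All 8 MeWo libraries were above all 8 A101D libraries, with a log2 fold change of 1.37 ± 0.03 (SE, limma adjusted p = 4.1e-33). UVRAG was called higher in A101D replicates 5 to 8 (0.12, limma adjusted p = 0.0262), although the sets overlapped. That call was lost without A101D replicate 3, 4, 6 or 7 (limma adjusted p from 0.0617 to 0.119). It was also lost with no low-count filter (0.06, limma adjusted p = 0.527). ULK1 (chr12:131894651-131923167, plus strand), the kinase that starts autophagy, held 42.8, 37.7, 38.97 and 40.7 CPM in A101D replicates 1 to 4 and 26.3, 25.3, 26.2 and 22.9 CPM in replicates 5 to 8. In MeWo the values were 37.3, 34.9, 35.1 and 38.03 CPM and 34.5, 32.01, 34.2 and 32.2 CPM. A101D replicates 5 to 8 were the lowest of the 4 groups and overlapped no other, and ULK1 was lower there than in replicates 1 to 4 by a log2 fold change of -0.67 ± 0.05 (SE, limma adjusted p = 5.1e-15). Its set difference in MeWo was -0.13 ± 0.05 (limma adjusted p = 0.0723), and it was called with median-of-ratios scaling (limma adjusted p = 0.0356).

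BECN1 (chr17:42810134-42833350, minus strand), the scaffold of the lipid kinase complex, was among the most even members. It held 122, 125, 125 and 124 CPM and 134, 141, 137 and 138 CPM in the A101D sets, and 120.3, 119, 121 and 117 CPM and 132, 125, 129 and 126 CPM in the MeWo sets. The sets did not overlap in either line, and replicates 5 to 8 were higher by 0.15 ± 0.03 in A101D and by 0.10 ± 0.03 in MeWo (log2 ± SE, limma adjusted p = 7.37e-05 and 0.0259). The MeWo call of BECN1 was lost without A101D replicate 3 or without MeWo replicate 1, 2, 3, 4, 5 or 7, with limma adjusted p between 0.0832 and 0.176. It was also lost with no low-count filter and with median-of-ratios scaling (limma adjusted p = 0.129 and 0.132). ATG13, a subunit of the ULK1 complex, and ATG14, which directs the BECN1 complex to autophagy, were both higher by 0.22 in A101D replicates 5 to 8 (log2, limma adjusted p = 2.06e-06 and 0.000126). Between lines ATG14 was higher in MeWo by 0.31 and ATG13 lower by a log2 fold change of -0.11.

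Of the 5 conjugation genes, 4 were higher and ATG3 was lower in A101D replicates 5 to 8, where 33.2% and 32.4% of all genes tested were. With no low-count filter 2 of 5 were higher, since ATG12 and ATG16L1 were no longer called (log2 fold changes 0.08 and 0.07, limma adjusted p = 0.147 and 0.113). ATG3 (chr3:112532509-112562046, minus strand), the E2-like enzyme that passes ATG8 proteins to the membrane lipid, held 82.1, 90.9, 85.3 and 86.02 CPM in A101D replicates 1 to 4 and 48.3, 53.97, 54.6 and 55.6 CPM in replicates 5 to 8. In MeWo it held 77.3, 79.6, 78.6 and 73.7 CPM and 69.4, 69.5, 71.3 and 68.9 CPM. The groups did not overlap within either line, and the fall was -0.69 ± 0.04 in A101D and -0.15 ± 0.04 in MeWo on the log2 scale (± SE, limma adjusted p = 4.42e-18 and 0.0113). The difference between these was 0.55 ± 0.06 (SE, limma adjusted p = 1.8e-10), with the larger fall in A101D. ATG7 (chr3:11272309-11557665, plus strand), the E1-like enzyme of the same pathway, moved the other way in A101D. It held 23.4, 24.5, 25.1 and 24.9 CPM and 33.3, 31.5, 30.9 and 30.3 CPM in the A101D sets, a log2 difference of 0.36 ± 0.05 (SE, limma adjusted p = 5.72e-09), and the sets did not overlap. In MeWo it held 31.7, 33.7, 32.5 and 32.7 CPM and 32.7, 33.3, 33.6 and 32.3 CPM, which overlapped.

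ATG16L1 (chr2:233210051-233295674, plus strand), part of the complex that sets where lipidation happens, was lower in MeWo. It held 85.4, 85.3, 83.7 and 82.4 CPM and 91.8, 93.7, 91.6 and 91.96 CPM in the A101D sets, and 61.9, 60.8, 63.8 and 57.8 CPM and 60.1, 57.03, 56.2 and 60.8 CPM in the MeWo sets. No MeWo library reached the lowest A101D library, and the log2 fold change was -0.56 ± 0.03 (SE, limma adjusted p = 3.58e-22). Its partners ATG5 and ATG12 were higher in A101D replicates 5 to 8 by 0.26 and 0.14 on the log2 scale (limma adjusted p = 1.94e-06 and 0.00238). ATG12 was higher in MeWo in both sets, by 0.42 and 0.36 on the log2 scale, while ATG5 was higher in MeWo in replicates 1 to 4 (0.27) and not called in replicates 5 to 8 (0.03).

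The 3 ATG8 proteins differed from each other between the lines. MAP1LC3B (chr16:87383995-87404779, plus strand), the ATG8 protein most used as an autophagosome marker, held 42.1, 48.6, 45.4 and 42.9 CPM in A101D replicates 1 to 4 and 65.3, 59.1, 59.7 and 56.3 CPM in replicates 5 to 8. In MeWo it held 80.8, 81.1, 77.6 and 74.8 CPM and 77.9, 82.96, 75.7 and 75.5 CPM. MeWo was above A101D in every library, and A101D replicates 5 to 8 lay between A101D replicates 1 to 4 and MeWo without overlap. The log2 fold change between lines was 0.82 ± 0.05 in replicates 1 to 4 and 0.38 ± 0.04 in replicates 5 to 8 (± SE, limma adjusted p = 5.52e-19 and 5.43e-10). A near-identical paralog, MAP1LC3B2, could share its reads. GABARAPL1 (chr12:10212458-10223130, plus strand), of the other ATG8 subfamily, held 49.4, 50.1, 49.5 and 52.1 CPM and 51.6, 51.97, 49.3 and 52.1 CPM in the A101D sets, and 28.7, 27.4, 30.6 and 28.02 CPM and 28.7, 25.1, 27.1 and 26.3 CPM in the MeWo sets. It was lower in every MeWo library, with a log2 fold change of -0.88 ± 0.03 (SE, limma adjusted p = 5.27e-26), the lowest of all 42 members. GABARAPL2 was called in no comparison, with a log2 fold change between lines of 0.05 (limma adjusted p = 0.112). Without MeWo replicate 1, 4, 7 or 8 it was called between lines (limma adjusted p from 0.0206 to 0.0367).

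The 3 cargo receptors were higher in MeWo over both sets (41.7% of all genes tested were), although NBR1 was not called in replicates 5 to 8 (0.05 ± 0.03, log2 ± SE, limma adjusted p = 0.108). SQSTM1 (chr5:179806398-179838078, plus strand), also named p62, binds ubiquitin-tagged cargo and is itself degraded by autophagy. It held 244, 240.3, 239 and 238 CPM and 198, 202, 207 and 208 CPM in the A101D sets, and 478, 486, 469 and 500.0 CPM and 484, 424, 461 and 467 CPM in the MeWo sets. Every MeWo library was above every A101D library, with a log2 fold change of 1.09 ± 0.02 (SE, limma adjusted p = 4.98e-34). SQSTM1 was lower in A101D replicates 5 to 8 by a log2 fold change of -0.24 ± 0.03 (SE, limma adjusted p = 1.07e-07), the opposite direction to MAP1LC3B in the same libraries. OPTN, a receptor for mitochondria and bacteria, held between 35.7 and 39.9 CPM across A101D libraries and between 77.9 and 86.4 CPM across MeWo, a log2 fold change of 1.15 (limma adjusted p = 4.46e-32).

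NBR1 (chr17:43170481-43211689, plus strand), a receptor that works with SQSTM1, differed less between lines. It held 151, 157, 151 and 152 CPM and 189.5, 184, 188 and 194 CPM in the A101D sets, and 186, 183, 178 and 173 CPM and 195, 195, 197 and 196 CPM in the MeWo sets. A101D replicates 5 to 8 overlapped the MeWo range, and replicates 1 to 4 lay below it. Replicates 5 to 8 were higher in both lines, by 0.31 ± 0.03 in A101D and by 0.12 ± 0.03 in MeWo (log2 ± SE, limma adjusted p = 3.89e-11 and 0.00613). The MeWo call was lost without MeWo replicate 3, 4 or 7 (limma adjusted p = 0.1, 0.0979 and 0.0741).

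Of the transcription factors and their nutrient control, 4 of 5 were higher and 1 lower in MeWo (41.7% and 45.2% of all genes tested were). TFEB (chr6:41683978-41736259, minus strand) held 6.25, 5.93, 4.45 and 4.96 CPM and 4.95, 4.85, 5.21 and 3.99 CPM in the A101D sets, and 5.64, 6.13, 5.98 and 4.97 CPM and 6.01, 6.53, 6.75 and 6.64 CPM in the MeWo sets. The groups overlapped except A101D and MeWo replicates 5 to 8, where TFEB was higher in MeWo by 0.46 ± 0.10 (log2 ± SE, limma adjusted p = 9.17e-05). In replicates 1 to 4 the difference was 0.07 ± 0.10 (limma adjusted p = 0.573). TFEB was the least precise member in 3 of the 4 groups, with a coefficient of variation of up to 15.5%. TFE3 (chrX:49028726-49043486, minus strand) held 71.8, 67.7, 76.2 and 68.98 CPM and 84.2, 79.04, 79.5 and 73.5 CPM in the A101D sets, and 68.6, 66.8, 68.9 and 70.96 CPM and 67.3, 61.6, 65.7 and 63.97 CPM in the MeWo sets. It was higher in A101D replicates 5 to 8 by 0.15 ± 0.04 (log2 ± SE, limma adjusted p = 0.00154), although the sets overlapped, and lower in MeWo by a log2 fold change of -0.17 ± 0.03 (SE, limma adjusted p = 2.43e-06), where the lines overlapped too. Within the sets TFE3 was called lower in MeWo in replicates 5 to 8, without overlap, and was not called in replicates 1 to 4. Its call between the A101D sets was lost with no low-count filter (0.09, limma adjusted p = 0.117).

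FLCN and FNIP1 form the complex that lets the Rag GTPases hold TFEB and TFE3 in the cytoplasm, and RRAGD is one of those GTPases. RRAGD held between 39.4 and 54.2 CPM across A101D libraries and between 97.2 and 116 CPM across MeWo, and FNIP1 held 55.2 to 64.2 CPM and 91.9 to 99.8 CPM. All 3 genes were higher in MeWo in both sets, RRAGD by 1.16 and 1.43, FNIP1 by 0.61 and 0.78 and FLCN by 0.47 and 0.33 on the log2 scale (limma adjusted p from 4.37e-23 to 4.46e-09). Within A101D, FLCN was higher in replicates 5 to 8 by 0.26 (limma adjusted p = 2.31e-06), and RRAGD and FNIP1 were lower by log2 fold changes of -0.26 and -0.13 (limma adjusted p = 0.000102 and 0.00422). The FNIP1 call was lost when libraries were scaled by total counts (log2 fold change -0.03, limma adjusted p = 0.551), a scaling that raised the median of all genes tested by 0.10 in this comparison.

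MITF, the melanocyte member of the same transcription factor family, is not on the list but is named here because it reads the same motif. It held 193 to 240 CPM in A101D replicates 1 to 4, 141 to 158 CPM in replicates 5 to 8, and 516 to 602 and 547 to 572 CPM in the MeWo sets. All MeWo libraries were above all A101D libraries (log2 fold change 1.65, limma adjusted p = 6.88e-19). TFEC, another factor of this family that is not on the list, went the other way in both comparisons. Its log2 fold change was -4.225 between lines (MeWo minus A101D) and 2.19 between the A101D sets (5 to 8 minus 1 to 4). The CPM of TFEC are not given here. The summed level of the 8 melanocytic markers was 2870 to 3470 and 2500 to 2750 CPM in the A101D sets, and 10300 to 11400 and 11100 to 11500 CPM in the MeWo sets. MLANA, PMEL, TYR, TYRP1, SOX10 and MITF were higher in MeWo, and DCT and S100B were lower. The log2 fold changes of DCT and S100B were -1.55 and -2.20 (limma adjusted p = 1.27e-11 and 3.78e-44). The part of these markers in the differences between lines was not tested.

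**Figure D3:**
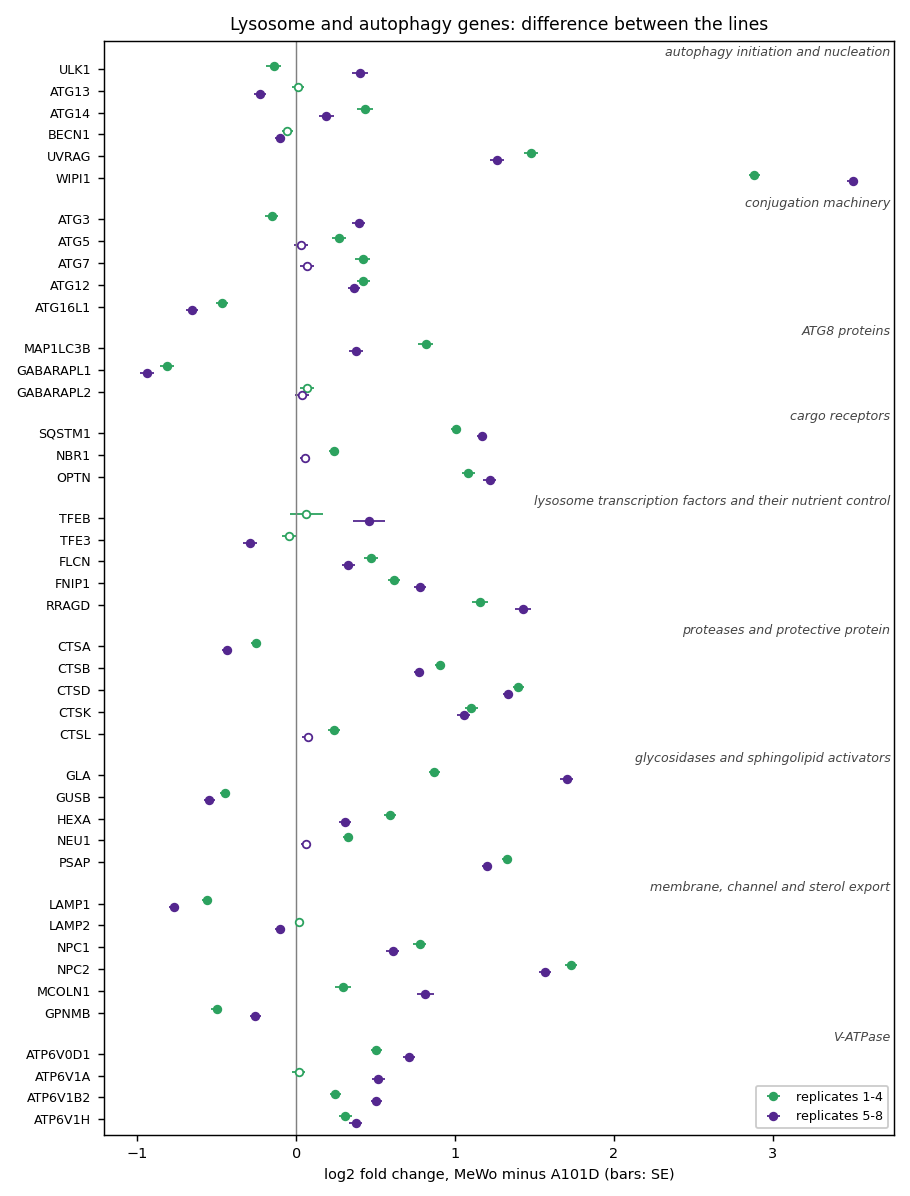
Log2 fold change of each member between the lines (MeWo minus A101D, bars show the SE), drawn separately for replicates 1 to 4 (green) and 5 to 8 (purple) and grouped by role. Filled points passed the threshold of 0.05. WIPI1 lies farthest to the right in both sets, and ULK1 and ATG3 have filled points on either side of 0.

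The proteases were higher in MeWo in 4 of 5 cases (41.7% of all genes tested were). CTSD (chr11:1752752-1764573, minus strand), the main aspartic protease of the lysosome, held 267, 254, 245 and 252 CPM and 262, 277, 275 and 257 CPM in the A101D sets, and 662, 702, 653 and 671 CPM and 709.6, 639, 691 and 665 CPM in the MeWo sets. Every MeWo library was above every A101D library (log2 fold change 1.37 ± 0.02, SE, limma adjusted p = 3.03e-37), and the sets overlapped in both lines. CTSD, whose promoter is printed above, was the only protease not called between the A101D sets (log2 fold change 0.07, limma adjusted p = 0.0698). It was called there with median-of-ratios scaling (limma adjusted p = 0.0376) and with total counts only (limma adjusted p = 3.35e-05), and also without A101D replicate 1 or 8 (limma adjusted p = 0.0322 and 0.026). Exons of 2 other annotated genes, 1 on each strand, cover 52.7% of its annotated exon bases.

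CTSK (chr1:150796208-150808323, minus strand), a collagen-degrading cysteine protease, had higher counts in replicates 5 to 8 of both lines. It held 142, 159, 134 and 140.0 CPM and 155, 170.5, 172 and 164 CPM in the A101D sets, which overlapped, and 314, 321, 315 and 285 CPM and 338, 354, 338 and 346 CPM in the MeWo sets, which did not. The set difference was 0.20 ± 0.04 in A101D and 0.16 ± 0.04 in MeWo (log2 ± SE, limma adjusted p = 8.8e-05 and 0.00496). Both calls were lost with no low-count filter (0.15 and 0.14, limma adjusted p = 0.115 and 0.0862), and the MeWo call also without MeWo replicate 4 (limma adjusted p = 0.0658). Between lines CTSK was higher in MeWo by 1.08 ± 0.03 (log2 ± SE, limma adjusted p = 7.37e-28).

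CTSB, a cysteine protease, held between 218 and 260 CPM across A101D libraries and between 404 and 450 CPM across MeWo. CTSB and CTSL, a related protease, were higher in MeWo by 0.84 and 0.16 on the log2 scale (limma adjusted p = 5.07e-31 and 1.33e-06). For CTSL the lines overlapped, and it was not called in replicates 5 to 8 (limma adjusted p = 0.0705). With a low-count filter at 1 CPM CTSL was called there (limma adjusted p = 0.03), as it was without some single libraries. CTSA, the protective protein that holds NEU1 and the beta-galactosidase in a stable complex, was lower in MeWo by a log2 fold change of -0.34 (limma adjusted p = 5.59e-18). NEU1, the sialidase of that complex, was higher in MeWo in replicates 1 to 4 by 0.32 (limma adjusted p = 5.1e-12) and not called in replicates 5 to 8 (0.06, limma adjusted p = 0.0574), although it was called there without MeWo replicate 1, 2, 3, 4, 6 or 8 (limma adjusted p from 0.0187 to 0.0491). Both CTSA and NEU1 were higher in A101D replicates 5 to 8, by 0.20 and 0.22 (limma adjusted p = 3.1e-07 and 9.11e-08).

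GLA showed the largest set difference of any member. GLA (chrX:101397803-101408012, minus strand) encodes alpha-galactosidase A, the enzyme that is lost in Fabry disease. It held 54.8, 57.3, 54.2 and 54.7 CPM in A101D replicates 1 to 4 and 26.5, 27.1, 27.5 and 28.1 CPM in replicates 5 to 8. The MeWo libraries held 104, 101.1, 100.5 and 98.9 CPM and 90.9, 88.2, 87.6 and 89.2 CPM. The 4 groups did not overlap anywhere, in the order A101D 5 to 8, A101D 1 to 4, MeWo 5 to 8 and MeWo 1 to 4. The fall was -1.02 ± 0.04 in A101D, 2.02-fold, and -0.18 ± 0.03 in MeWo (log2 ± SE, limma adjusted p = 1.87e-23 and 0.000166), and the difference between these was 0.83 ± 0.05 (SE, limma adjusted p = 1.39e-16). The gap between lines was therefore 0.87 ± 0.04 in replicates 1 to 4 and 1.70 ± 0.04 in replicates 5 to 8 on the log2 scale (± SE, limma adjusted p = 6.19e-24 and 1.58e-32).

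HEXA and NEU1 went the other way between the A101D sets. HEXA (chr15:72340919-72376476, minus strand), the alpha subunit of the enzyme that degrades GM2 ganglioside, held 56.2, 61.2, 58.5 and 59.3 CPM and 72.02, 73.7, 74.96 and 69.5 CPM in the A101D sets, a rise of 0.30 ± 0.04 (log2 ± SE, limma adjusted p = 6.2e-09). MeWo held 90.7, 90.03, 86.05 and 86.96 CPM and 87.7, 93.4, 90.7 and 87.5 CPM. The A101D sets did not overlap, the MeWo sets did, and all MeWo libraries were above all A101D libraries. GUSB, beta-glucuronidase, held between 115 and 127 CPM across A101D libraries and between 81.5 and 89.8 CPM across MeWo, and PSAP held 1527 to 1774 and 3726 to 4140 CPM. GUSB was lower in MeWo by a log2 fold change of -0.50 (limma adjusted p = 9.5e-22), and PSAP was higher by 1.26 (limma adjusted p = 1.55e-37). Both were higher in A101D replicates 5 to 8, by 0.10 and 0.14 (limma adjusted p = 0.00864 and 8.16e-05). With no low-count filter both calls were lost (0.04 and 0.07, limma adjusted p = 0.376 and 0.747).

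Membrane proteins, the channel and the sterol exporters divided between the lines. LAMP1 (chr13:113297241-113323672, plus strand), a major protein of the lysosomal membrane whose promoter is the one with the most copies of CACGTG printed above, held 384, 389, 371 and 383 CPM and 426, 441, 428 and 441 CPM in the A101D sets. The MeWo libraries held 263, 269, 259 and 247 CPM and 267, 248, 254 and 251 CPM. Every MeWo library was below every A101D library, and the A101D sets did not overlap. The log2 fold change between lines was -0.66 ± 0.02 (SE, limma adjusted p = 1.19e-27), and A101D replicates 5 to 8 were higher by 0.18 ± 0.03 (log2 ± SE, limma adjusted p = 9.12e-07). Its relative LAMP2 was not called between lines (log2 fold change -0.04, limma adjusted p = 0.0788), but the sets differed. In replicates 5 to 8 LAMP2 was called lower in MeWo, at 487 to 503.8 CPM against 520.7 to 537 CPM in A101D. In replicates 1 to 4 it was not called (limma adjusted p = 0.535). There it was called higher in MeWo without MeWo replicate 4 (0.09, limma adjusted p = 0.00804). Over both sets and scaled by total counts only, LAMP2 was called lower in MeWo (-0.07, limma adjusted p = 0.00107), as it was without A101D replicate 1, 5 or 7 (limma adjusted p = 0.0153, 0.0411 and 0.0468).

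NPC2 (chr14:74476192-74494177, minus strand), which hands cholesterol to NPC1 inside the lysosome, held 52.7, 50.7, 50.7 and 51.01 CPM and 60.5, 59.1, 59.02 and 59.9 CPM in the A101D sets, and 171, 180.4, 169 and 161 CPM and 187, 175, 177 and 169 CPM in the MeWo sets. MeWo was higher without overlap, by 1.65 ± 0.03 (log2 ± SE, 3.14-fold, limma adjusted p = 4.36e-38), and its partner NPC1, at between 93.9 and 117 CPM across A101D libraries and between 157 and 182 CPM across MeWo, by 0.69 (log2, limma adjusted p = 3.59e-24). GPNMB (chr7:23235967-23275108, plus strand) held 1149, 1237, 1082 and 1108 CPM and 934, 996, 991 and 987 CPM in the A101D sets, and 844, 828, 812 and 754 CPM and 818, 843, 808 and 804 CPM in the MeWo sets. It was lower in MeWo by a log2 fold change of -0.38 ± 0.02 (SE, limma adjusted p = 3.11e-16) and lower in A101D replicates 5 to 8 by a log2 fold change of -0.23 ± 0.03 (SE, limma adjusted p = 3.89e-07), with no overlap in either comparison.

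MCOLN1 encodes the lysosomal calcium channel that activates calcineurin and through it TFEB, and its promoter carries the motif at 41 and 14 bases before the start. It held 32.1, 26.4, 29.03 and 27.7 CPM in A101D replicates 1 to 4 and 18.7, 20.4, 20.2 and 20.9 CPM in replicates 5 to 8. Its MeWo values were 36.5, 35.1, 35.99 and 33.7 CPM and 36.6, 34.2, 35.7 and 34.6 CPM. A101D replicates 5 to 8 were the lowest group and overlapped no other, and the fall was -0.52 ± 0.06 (log2 ± SE, limma adjusted p = 6.16e-11).

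The 4 V-ATPase subunits on the list were higher in MeWo over both sets (41.7% of all genes tested were) and lower in A101D replicates 5 to 8 (32.4% of all genes tested were). Between lines ATP6V1A was not called in replicates 1 to 4 (limma adjusted p = 0.729), nor with 2 groups by line (limma adjusted p = 0.0509). The V-ATPase is the pump that acidifies the lysosome. ATP6V1A (chr3:113747019-113812056, plus strand), its catalytic subunit, held 196, 219, 197 and 192 CPM in A101D replicates 1 to 4 and 118, 131, 128 and 135 CPM in replicates 5 to 8. In MeWo it held 209.8, 211, 199 and 193 CPM and 180.4, 182, 182 and 188 CPM. A101D replicates 1 to 4 overlapped MeWo, and A101D replicates 5 to 8 lay below all other libraries. The fall was -0.65 ± 0.04 in A101D and -0.15 ± 0.04 in MeWo (log2 ± SE, limma adjusted p = 1.86e-17 and 0.00748), and the difference between these was 0.50 ± 0.06 (SE, limma adjusted p = 6.58e-10). ATP6V0D1, ATP6V1B2 and ATP6V1H, 1 subunit of the membrane part and 2 of the outer part, were lower in A101D replicates 5 to 8, with log2 fold changes of -0.30, -0.24 and -0.17 (limma adjusted p = 2.86e-09, 6.22e-08 and 0.000366). The call of ATP6V1H was lost when libraries were scaled by total counts (-0.07, limma adjusted p = 0.105). In bulk RNA, fewer cells with a transcript and less of it per cell cannot be told apart for any of these genes.

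**Figure D4:**
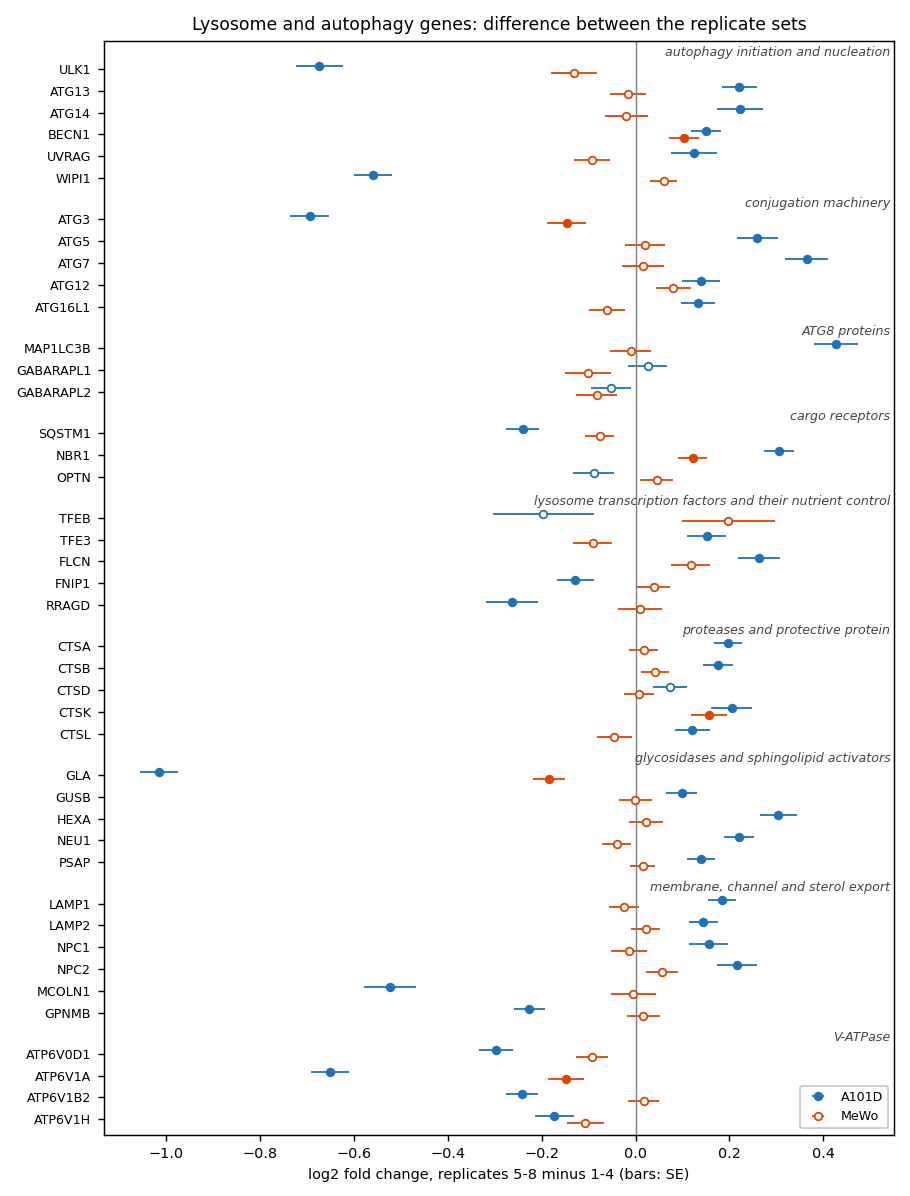
Log2 fold change of each member between replicates 5 to 8 and replicates 1 to 4 within A101D (blue) and MeWo (orange), with bars for the SE and genes grouped by role. Filled points passed the threshold of 0.05. The A101D points spread from GLA on the left to MAP1LC3B on the right, while the MeWo points lie between -0.18 and 0.20.

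By role, the A101D sets differed in a mixed way, beside the 33.2% of all genes tested that were higher and the 32.4% that were lower. The V-ATPase had 0 of 4 higher and 4 of 4 lower in replicates 5 to 8, the proteases 4 of 5 higher and 0 lower, the conjugation genes 4 of 5 higher and 1 lower, and the glycosidases 4 of 5 higher and 1 lower. The membrane group had 4 of 6 higher and 2 lower, and the initiation group 4 of 6 higher and 2 lower. With no low-count filter the higher members were 1 of 5 proteases (CTSA), 2 of 5 conjugation genes (ATG5 and ATG7), 2 of 5 glycosidases (HEXA and NEU1), 1 of 6 membrane genes (LAMP1) and 3 of 6 initiation genes (ATG13, ATG14 and BECN1), while the V-ATPase still had 4 of 4 lower. With the main filter the ATG8 proteins had 1 of 3 higher and 0 lower, and the cargo receptors 1 of 3 higher and 1 lower. The transcription factors and their nutrient control had 2 of 5 higher and 2 lower. Members with CACGTG in the promoter window went both ways. They made up 4 of the 18 members with a window that were higher (ATG14, CTSA, LAMP1 and NEU1) and 4 of the 9 that were lower (ATG3, ATP6V0D1, FNIP1 and MCOLN1). Between lines they were 7 of the 22 higher and 2 of the 9 lower members with a window. The directions of all tested genes with CACGTG in a window were not counted, so these counts have no background to be read against. With no label for the replicate sets, what the split stands for is not known.

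A wider list of 124 other genes of the same pathways was counted, of which 123 were tested. Between lines 64 were higher and 49 lower in MeWo (41.7% and 45.2% of all genes tested), and between the A101D sets 47 were higher and 49 lower in replicates 5 to 8 (33.2% and 32.4%). Between the MeWo sets 14 were higher and 6 lower (6.16% and 7.45%). Of the 19 other V-ATPase subunits, 7 were higher and 8 lower in A101D replicates 5 to 8. ATP6V0A2, a membrane subunit, held between 62.9 and 71.0 CPM in the first A101D set (replicates 1 to 4) and between 30.4 and 35.3 CPM in the second (5 to 8). TCIRG1, another isoform of that subunit, held 43.7 to 54.4 and 31.5 to 32.5 CPM in the A101D sets and 326 to 387 CPM in MeWo. The 2 subunits at least 2-fold higher in A101D replicates 5 to 8 were low throughout that line. ATP6V0D2, a further membrane subunit, went from 0.0712 to 0.148 CPM up to 0.413 to 0.733 CPM and was at 5.98 to 9.47 CPM in MeWo, and ATP6V1G2, of the outer part, went from 0.148 to 0.235 CPM up to 0.397 to 0.501 CPM.

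Other autophagy genes with large differences included VAMP8, a SNARE of autophagosome fusion, at between 31.2 and 40.5 CPM across A101D libraries and between 0.0576 and 0.489 CPM across MeWo. STX17, the SNARE partner on the autophagosome, went the other way, at between 21.5 and 25.5 CPM across A101D libraries and between 80 and 93.2 CPM across MeWo. BNIP3L, a receptor for mitochondria, held 51.7 to 57.7 CPM in A101D replicates 1 to 4, 33.7 to 38.0 CPM in replicates 5 to 8, and 129 to 152 CPM in MeWo. Of the 50 other lysosomal enzymes and membrane proteins, 9 were at least 2-fold higher in MeWo and 6 at least 2-fold lower. These shares were 16.1% and 23.7% among all genes tested. CTSS had the largest fall, a log2 fold change of -3.912. Between the A101D sets LAMP3 had the largest rise, 1.456 on the log2 scale. ASAH1, acid ceramidase, held between 157 and 194 CPM across A101D libraries and between 505 and 592 CPM across MeWo. NAGLU, which degrades heparan sulfate, held 52.0 to 53.0 and 28.9 to 30 CPM in the A101D sets and 78.0 to 89.5 CPM in MeWo. LAMTOR1, the anchor of the Ragulator complex that carries the Rag GTPases, held 67.5 to 70.2 and 39.7 to 44.3 CPM in the A101D sets and 156 to 174 CPM in MeWo. RRAGC, a Rag GTPase, held 12.0 to 15.6 and 23.4 to 26.3 CPM in the A101D sets.

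Markers of other cell types were counted beside these results. The 3 endothelial markers summed to between 3.74 and 4.80 CPM in the first A101D set (replicates 1 to 4) and between 15.2 and 19.7 CPM in the second (5 to 8), carried by VWF, with PECAM1 at 0.672 CPM or less and CDH5 at 1.31 CPM or less. The 4 fibroblast markers summed to 917 to 1030 and 577 to 647 CPM in the A101D sets, carried by COL1A2, and to 75.8 to 85.7 CPM in MeWo, carried by LUM. The 4 haematopoietic markers summed to 0.0891 to 0.578 CPM over all groups and the 3 epithelial markers to 0.446 to 2.28 CPM. The part of the endothelial and fibroblast markers in the A101D set differences was not tested.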

How the data were processed

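The authors deposited 1 table per line of whole-number counts per gene and library, not normalized, in which each cell joins an Ensembl identifier and its count. These were separated before use, and all 16 columns were used. The submitters' processing notes name Trimmomatic 0.39-1, STAR 2.7.1a, featureCounts 2.0.0 and GRCh38, while the annotation release and the strandedness of counting are not given in the sources used. Symbols came from a gene name table (60357 of 60676 identifiers), and positions and exon lengths from GENCODE v29 (58503 identifiers).

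Genes were tested when at least 4 libraries reached 0.298 CPM (10 counts at the median depth) and the total was at least 15 counts. Library sizes were scaled by TMM (trims of 30% and 5%). One limma-voom model (limma 3.58.1, R 4.3.3) of the 4 groups gave every contrast over all 21569 genes, with two-sided p-values under Benjamini-Hochberg adjustment. It was tested on simulated data. The plan named a quasi-likelihood test of counts, with limma-voom as its stated replacement if the joined cells did not pass as counts, and they did not. Fold changes are on the log2 scale. Pairs of libraries were checked for duplicates, and the lowest chi-square per degree of freedom was 1.967.

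The members, the wider gene list, the markers and the split by replicate number were chosen with earlier results of these data known, so p-values for the split describe it and are no independent support. Members given in every library were 6 fixed ones (SQSTM1, MAP1LC3B, TFEB, TFE3, LAMP1 and CTSD), up to 3 called members of largest change in each direction and comparison, and MCOLN1, added after its values were seen because its promoter is printed. Of the wider list, up to 2 genes per sublist, direction and comparison could be named. Alternatives were limma-trend, scaling by median-of-ratios factors or by total counts alone, no low-count filter or one at 1 CPM, an adjusted p under 0.01, the replicate number as a block, 2 groups by line, and each library left out. A call rule of at least 2-fold, and the reading without MeWo replicate 2, were added after seeing the data.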

Additional observations from a re-analysis of the deposited data

Results flagged for a closer look

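In 8 of the 168 combinations of a member and a group of 4 libraries, 1 library lay apart from the other 3 by Dixon's criterion at 4 samples, and chance flags about 1 in 20 groups, here 8.4. WIPI1 was at 442 CPM in MeWo replicate 1 (others 422 to 424), and ATP6V1A was at 219 CPM in A101D replicate 2 (others 192 to 197). GPNMB was at 934 CPM in A101D replicate 5 (others 987 to 996), and CTSL was at 210 CPM in MeWo replicate 4 (others 221 to 222). ATG16L1 was at 93.7 CPM in A101D replicate 6 (others 91.6 to 92.0), OPTN was at 37.7 CPM in A101D replicate 8 (others 35.7 to 35.8), and NPC2 was at 52.7 CPM in A101D replicate 1 (others 50.7 to 51.0). FLCN was at 54.4 CPM in MeWo replicate 2 (others 59.0 to 59.6), the library with the most genes detected.

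For 34 members the difference between replicates 5 to 8 and 1 to 4 was itself different between the lines (limma, interaction contrast, adjusted p under 0.05 over all genes tested, as for 49.1% of those genes). The 14 positive values (set difference in MeWo minus that in A101D, log2) were ULK1, 0.54, WIPI1, 0.62, ATG3, 0.55, SQSTM1, 0.16, OPTN, 0.13, TFEB, 0.39, FNIP1, 0.17, RRAGD, 0.27, GLA, 0.83, MCOLN1, 0.52, GPNMB, 0.24, ATP6V0D1, 0.20, ATP6V1A, 0.50 and ATP6V1B2, 0.26. The 20 negative values were ATG13, -0.24, ATG14, -0.24, UVRAG, -0.22, ATG5, -0.24, ATG7, -0.35, ATG16L1, -0.19, MAP1LC3B, -0.44, NBR1, -0.18, TFE3, -0.24, FLCN, -0.15, CTSA, -0.18, CTSB, -0.13, CTSL, -0.17, HEXA, -0.28, NEU1, -0.26, PSAP, -0.12, LAMP1, -0.21, LAMP2, -0.12, NPC1, -0.17 and NPC2, -0.16. Leaving out 1 library ended the call for OPTN (limma adjusted p = 0.227 without MeWo replicate 4), FLCN (0.133 without A101D replicate 6), TFEB (0.0852 without A101D replicate 1), LAMP2 (0.0751 without A101D replicate 1) and FNIP1 (0.0561 without MeWo replicate 3). OPTN also lost it without A101D replicate 2, 3, 5, 6 or 7 or MeWo replicate 1, 2, 3, 5, 7 or 8. FLCN also lost it without A101D replicate 2, 4 or 5 or MeWo replicate 1, 3, 5, 6 or 8. TFEB also lost it without A101D replicate 2 or 8 or MeWo replicate 4 or 7, and LAMP2 without MeWo replicate 1. With no low-count filter the call ended for 11 of the 34 (limma adjusted p): ATG14 (0.0589), UVRAG (0.107), OPTN (0.0567), TFEB (0.0634), FLCN (0.274), CTSB (0.25), CTSL (0.0984), PSAP (0.736), LAMP2 (0.261), NPC1 (0.213) and NPC2 (0.293). Total counts only ended it for SQSTM1 (limma adjusted p = 0.0608), OPTN (0.274), TFEB (0.0643) and FNIP1 (0.0927), median-of-ratios factors for OPTN (0.215) and FNIP1 (0.0639), and limma-trend for FLCN (0.054). The sets carry no labelled condition.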

How the results depend on the processing

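No member changed sign past the threshold under any alternative run. Requiring at least 2-fold left 10 of the 40 members called between lines, 1 of 37 between the A101D sets, 0 of 6 between the MeWo sets (limma; 6 members passed the adjusted threshold), 0 of 34 for the difference between the lines' set differences, 9 of 35 between lines in replicates 1 to 4 and 10 of 36 in replicates 5 to 8. Total counts only gave 11 members between the MeWo sets (8 higher, 3 lower) and median-of-ratios factors gave 9 (2 higher, 7 lower), against 3 and 3 with TMM. Without a low-count filter 26 members were called between the A101D sets (12 higher, 14 lower) and 23 for the difference of set differences. More genes were tested in that run, and log2 fold changes shifted by medians of -0.0592 and 0.0391 in these comparisons. In it 12 small A101D rises were lost. With 2 groups by line 35 were called, without ULK1, ATG13, BECN1, ATG3 and ATP6V1A. Leaving out each library gave 40 to 41 members between lines, 36 to 39 between the A101D sets, 4 (without MeWo replicate 7) to 8 (without MeWo replicate 5) between the MeWo sets, 31 to 34 for the difference of set differences, and 34 to 37 and 36 to 39 between lines in the 2 sets. Without MeWo replicate 2 these counts were 40, 37, 5, 33, 34 and 38. The cause of these changes was not tested except where named. With the replicate block the counts were 40, 34, 35 and 36 and changed no member's call. Same-numbered libraries of the lines correlated between -0.08 and 0.23, which cannot show whether they were handled together. A DESeq2 Wald test, planned for columns that passed as counts, was not run. TFEB, with 125 counts at the lowest, is the member most limited by depth.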
